A study of Homo sapiens with 12 samples.

Results

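The genes described here are 48 components of the machinery that drives a human cell through mitosis and splits it at cytokinesis. They were taken by symbol from a list of mitotic kinases and cyclins, with the transcription factors that switch them on. The list also holds spindle motors, chromosome-compaction proteins, anaphase regulators and cytokinesis proteins. It was chosen with earlier results of these data known, so the shares of all genes given below are a description and not a test of the list. All 48 were found among the 58735 genes of the deposited tables, and all 48 passed the filter on low counts that left 16218 genes for testing. Polyadenylated RNA had been sequenced from 2 established anaplastic thyroid carcinoma lines, a cancer of thyroid follicular origin that has lost its differentiation. KHM-5M carries the activating kinase allele BRAF V600E and was grown in RPMI-1640, while TTA-1 is labelled WT for BRAF and was grown in DMEM. The groups, with 3 libraries each, were KHM-5M with GDC-0994, KHM-5M with DMSO, TTA-1 with GDC-0994 and TTA-1 with DMSO. GDC-0994 (ravoxertinib), a small-molecule inhibitor of the kinases ERK1 and ERK2, was given at 1 µM for 24 hours, and the vehicle DMSO for the same time. Each genotype is represented by 1 line and each line by its own medium, so genotype, line and medium cannot be told apart. The labels do not say whether the 3 libraries of a group came from separate cultures, and p-values measure the spread between these libraries, which may be technical.

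Entry into mitosis depends on CDK1, a kinase that needs a cyclin A or cyclin B partner and the removal of inhibitory phosphates by CDC25 phosphatases. Polo-like and Aurora kinases then build the bipolar spindle with the help of kinesin motors, condensins compact the chromosomes, and the anaphase-promoting complex with CDC20 starts their separation. The genes for these proteins are transcribed mostly in G2 and mitosis, under FOXM1, MYBL2 and the MuvB complex, and their RNA is scarce in resting cells. In bulk RNA a smaller number of dividing cells and less RNA per dividing cell cannot be told apart.

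Total counts lay between 14952970 and 18389915 per library. The 48 genes together took 0.183% ± 0.0154 of all counts in GDC-0994-treated KHM-5M cells, against 0.749% ± 0.0195 with DMSO, and 0.943% ± 0.00481 in GDC-0994-treated TTA-1 cells, against 0.883% ± 0.0545 with DMSO (SD, n = 3 each). The thyroid transcription factor PAX8 averaged 120 CPM (counts scaled to the library total, here by TMM) with GDC-0994 and 210 CPM with DMSO in KHM-5M, and 3.65 CPM with GDC-0994 and 3.59 CPM with DMSO in TTA-1. The defining thyroid genes TG, TSHR, SLC5A5 and NKX2-1 were at or near 0 in both lines, with group means of at most 0.224 CPM. Of 4 fibroblast markers, COL1A1, LUM and PDGFRB rose in KHM-5M under GDC-0994 and DCN was near 0, with summed means of 1947 CPM with GDC-0994 and 738 CPM with DMSO in KHM-5M and 4.65 CPM with GDC-0994 and 3.65 CPM with DMSO in TTA-1. Their part in the results below was not tested. Summed means in KHM-5M were 3.02 CPM with GDC-0994 and 2.51 CPM with DMSO for 4 endothelial markers, and 0.279 CPM with GDC-0994 and 1.01 CPM with DMSO for 4 C-cell markers. Of the blood cell markers given here, PTPRC, CD3E, LYZ and HBB had group means of at most 0.0895 CPM, and CD14 averaged 2.03 CPM in KHM-5M with GDC-0994 and 2.00 CPM with DMSO.

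In KHM-5M the RNA of every one of these genes was lower with GDC-0994 than with DMSO. All 48 fell at an adjusted p below 0.05 (edgeR's quasi-likelihood test, Benjamini-Hochberg over 16218 genes), where 25.1% of all genes tested fell, and none rose, where 24.6% of all genes did. Their median log2 fold change was -2.08, against a median of 0.02 over all genes tested, and single genes ranged between -3.08 for the condensin subunit NCAPH and -1.09 for the phosphatase CDC25B. All 48 fell at least 2-fold, as 8.18% of all genes tested did. Of the 48, 43 lay among the 5% of genes with the lowest fold change and the remaining genes within the lowest 8.05%. For all 48 the 3 treated KHM-5M libraries lay below the 3 DMSO libraries, as they did for 30.6% of all genes tested. In TTA-1 none of the 48 was called, where 3.43% of all genes tested were called (2.24% fell and 1.18% rose), and their median log2 fold change was 0.08, and the treated and DMSO libraries overlapped for 38 of them.

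**Figure D1:**
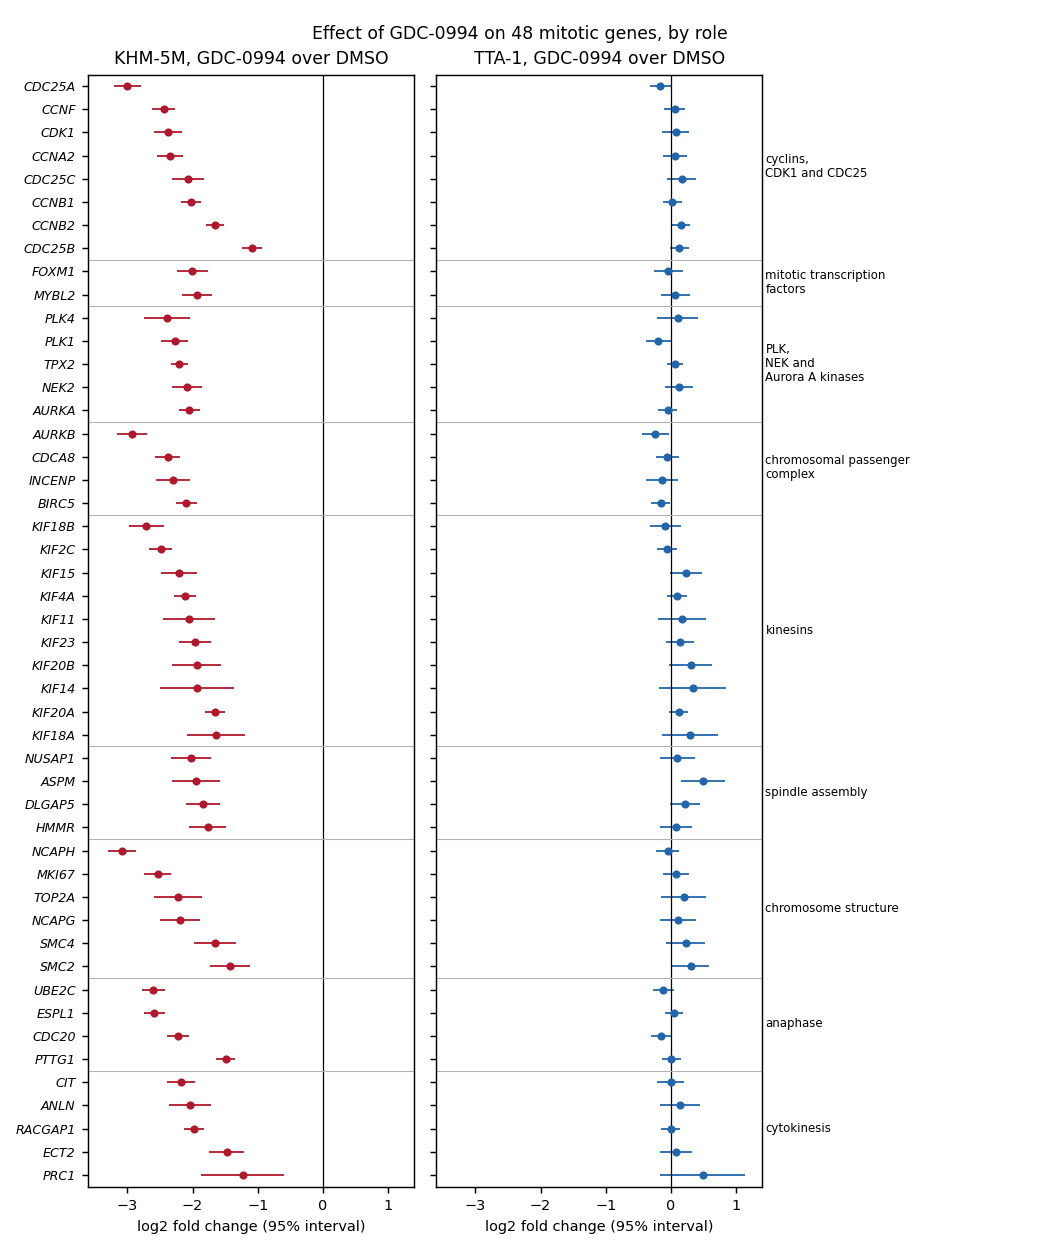
Log2 fold change of GDC-0994 over DMSO for the 48 genes in KHM-5M (left, red) and TTA-1 (right, blue), with bars for the 95% interval of the edgeR fit and genes ordered within their roles. All KHM-5M points lie between -3.08 and -1.09, and all TTA-1 points between -0.24 and 0.49.

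Promoters of genes of this kind are known to carry the cell cycle genes homology region (CHR), with the core TTTGAA, which the MuvB complex binds, and CCAAT boxes bound by NF-Y. RefSeq promoter windows (GRCh38.p14, 250 bases before to 50 bases after each start) were found for 42 of the 48 genes, 56 windows in all. TTTGAA on either strand was present in 60.7% of these windows and in 15.2% of the 35116 windows of all genes. CCAAT on either strand was present in 71.4% and 34.6%, and both motifs together in 48.2% and 5.9%. One of the E2F-like motifs TTTCGCG or TTTGGCG or TTTCCCG was present in 16.1% of the windows of the 48 genes and 7.2% of all windows. For the transport kinesins and kinesin light chains, motors of resting and dividing cells alike, 13 genes had a window and 1 held TTTGAA. The following 120-base stretches end at the base before the RefSeq start and lie outside the gene as GENCODE draws it. MKI67, KIF11 and ESPL1 are shown for windows that hold both motifs, and NCAPH and CDC25A because they had the largest falls in KHM-5M and hold no TTTGAA. Capitals mark TTTGAA and CCAAT or their reverse complements TTCAAA and ATTGG, which overlap by 1 base in MKI67. E2F-like motifs are not marked: TTTCCCG stands in lower case in the MKI67 stretch and TTTGGCG in the CDC25A stretch.
MKI67: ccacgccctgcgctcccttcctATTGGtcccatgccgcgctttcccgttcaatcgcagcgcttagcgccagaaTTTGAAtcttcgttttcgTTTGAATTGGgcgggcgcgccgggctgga
KIF11: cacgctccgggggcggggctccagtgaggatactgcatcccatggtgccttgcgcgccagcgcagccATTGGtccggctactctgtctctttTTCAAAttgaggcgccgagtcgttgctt
ESPL1: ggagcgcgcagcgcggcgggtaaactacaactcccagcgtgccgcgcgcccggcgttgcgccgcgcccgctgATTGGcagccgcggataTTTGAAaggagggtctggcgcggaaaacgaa
NCAPH: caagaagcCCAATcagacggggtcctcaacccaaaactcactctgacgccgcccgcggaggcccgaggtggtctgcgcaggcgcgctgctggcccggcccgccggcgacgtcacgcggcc
CDC25A: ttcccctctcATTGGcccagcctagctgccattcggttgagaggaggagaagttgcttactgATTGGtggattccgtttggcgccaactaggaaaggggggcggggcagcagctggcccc
These stretches are chr10:128126424-128126543 (minus strand), chr10:92593010-92593129 (plus), chr12:53268179-53268298 (plus), chr2:96335646-96335765 (plus) and chr3:48188418-48188537 (minus).

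**Figure D2:**
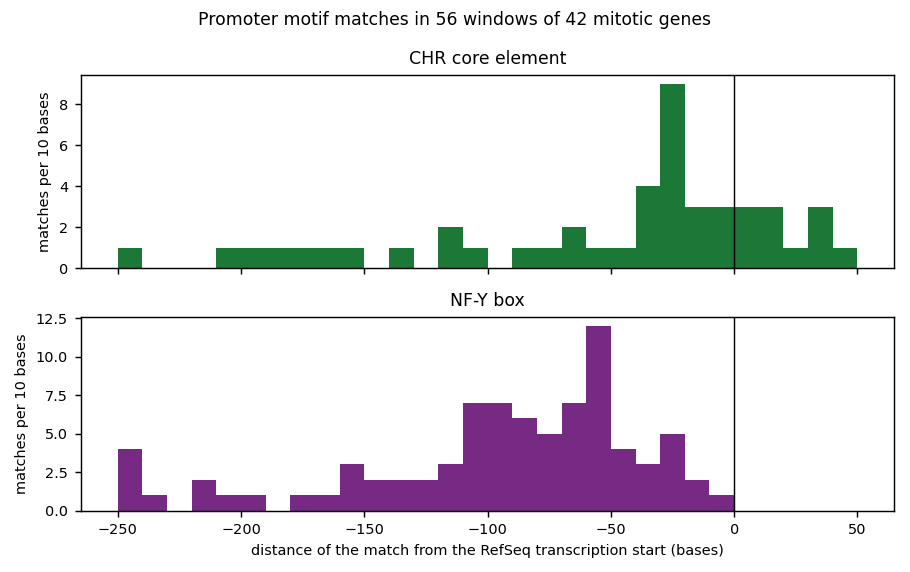
Number of matches to the CHR core element (top) and the NF-Y box (bottom) per 10 bases, by the distance of the match's first base in bases from the RefSeq start, in the 56 windows of 42 genes. CHR matches are most frequent between 30 and 20 bases before the start, and 68 of 82 NF-Y box matches lie within 150 bases before it.

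Of the 47 TTTGAA matches in these windows, 25 began within 100 bases before the start. A CCAAT box stood upstream of TTTGAA in the same window in 25 genes, and in 17 of these at 20 to 50 bases between their first bases. Genes with and without the motifs had similar medians. The median log2 fold change in KHM-5M was -2.07 for the 31 genes with TTTGAA and -2.09 for the 11 genes with a window but no TTTGAA. For CCAAT it was -2.09 in 35 genes with the box and -2.04 in 7 without it.

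Among the cyclins, CDK1 and the CDC25 phosphatases, all 8 genes fell in KHM-5M, with a median log2 fold change of -2.21. CDK1 (chr10:60778331-60794852, like all gene positions here on GRCh38), the kinase at the centre of mitotic entry, had 23.7, 20.1 and 24.4 CPM in GDC-0994-treated KHM-5M cells, against 122, 112 and 121 CPM with DMSO. In TTA-1 it had 134, 132 and 148 CPM with GDC-0994, against 119.7, 151 and 122 CPM with DMSO. The KHM-5M groups did not overlap, the TTA-1 groups did, and CDK1 fell 5.20-fold in KHM-5M (log2 fold change -2.38, SE 0.10, adjusted p 1.03e-11). Its partner CCNB1 (chr5:69167010-69178245), cyclin B1, had 91.6, 82.2 and 91.5 CPM with GDC-0994 and 371, 366 and 346 CPM with DMSO in KHM-5M, and 544, 559 and 557 CPM with GDC-0994 and 524, 594 and 520.2 CPM with DMSO in TTA-1. CCNB1 fell 4.08-fold in KHM-5M (log2 fold change -2.03, SE 0.07), and its other mitotic relatives fell by 1.66 (CCNB2) and 2.35 (CCNA2) on the log2 scale. The F-box protein CCNF, which marks other proteins for degradation, fell by 2.45 on the same scale.

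The 3 CDC25 phosphatases fell by different amounts. CDC25A (chr3:48157146-48188402), which acts at the start of S phase as well as at mitotic entry, had 3.69, 3.87 and 4.17 CPM in KHM-5M with GDC-0994, against 31.3, 30.8 and 32.1 CPM with DMSO. CDC25A had the largest change of this role (8.03-fold, log2 fold change -3.00, SE 0.10, adjusted p 3.43e-13), with no overlap between the groups. In TTA-1 CDC25A had 48.3, 45.7 and 49.3 CPM with GDC-0994 and 54.8, 52.9 and 52.4 CPM with DMSO, all treated libraries below all DMSO libraries, with a log2 fold change of -0.16 that did not pass the test (adjusted p 0.299). CDC25B (chr20:3786772-3806121), which activates CDK1 at the centrosome in early mitosis, had 112, 105 and 103 CPM with GDC-0994 and 233, 225 and 225 CPM with DMSO in KHM-5M. That is 2.13-fold lower (log2 fold change -1.09, SE 0.07), the smallest fall of the 48 genes, and 46.9% of the DMSO level was left, against 12.5% for CDC25A. In TTA-1 CDC25B had 215, 220.0 and 216 CPM with GDC-0994 and 208, 179 and 208 CPM with DMSO. CDC25C lay between the other two, at a log2 fold change of -2.07 in KHM-5M.

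The 2 transcription factors of mitotic genes fell by similar amounts. FOXM1 (chr12:2857681-2877155), a forkhead factor, had 54.1, 52.2 and 56.3 CPM in GDC-0994-treated KHM-5M cells, against 216, 222 and 215 CPM with DMSO, and 214, 191 and 199 CPM in GDC-0994-treated TTA-1 cells, against 235, 161 and 225 CPM with DMSO. In KHM-5M the treated libraries lay close together and far below DMSO, whereas in TTA-1 replicate 2 of DMSO lay below all treated libraries and the other DMSO libraries above them. MYBL2 (chr20:43667019-43716496), which joins the MuvB complex in late S phase, had 109.7, 96.1 and 94.9 CPM with GDC-0994 and 396, 385 and 368 CPM with DMSO in KHM-5M, and 325, 327 and 312 CPM with GDC-0994 and 357, 239.8 and 322 CPM with DMSO in TTA-1. The log2 fold changes in KHM-5M were -2.00 (SE 0.11, adjusted p 2.09e-10) for FOXM1 and -1.93 (SE 0.11, adjusted p 3.32e-10) for MYBL2. For MYBL2 DMSO replicate 2 was again the lowest TTA-1 library, and DMSO replicate 3 lay inside the treated range.

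The polo-like, NIMA-related and Aurora A kinases, with the Aurora A activator TPX2, fell within a narrow range, from -2.39 to -2.05 on the log2 scale for all 5 genes. PLK1 (chr16:23677656-23690367), which controls centrosome maturation, spindle assembly and cytokinesis, had 40.6, 39.96 and 39.4 CPM in KHM-5M with GDC-0994, against 191, 201 and 190.4 CPM with DMSO. In TTA-1 it had 178, 162 and 147 CPM with GDC-0994 and 207, 159 and 190.0 CPM with DMSO. Its 3 treated KHM-5M libraries lay close together, and the fall was 4.85-fold (log2 fold change -2.28, SE 0.10, adjusted p 6.62e-12). PLK4 (chr4:127880861-127899195), the kinase that starts centriole duplication, was much scarcer, with 4.53, 5.08 and 6.99 CPM with GDC-0994 and 31.7, 27.2 and 27.7 CPM with DMSO in KHM-5M, and it fell 5.24-fold. In TTA-1 PLK4 had 31.9, 32.1 and 33.3 CPM with GDC-0994, inside the range of 24.5, 37.7 and 28.5 CPM with DMSO. AURKA (chr20:56369389-56392337), the spindle-pole Aurora kinase, had 60.1, 52.3 and 54.01 CPM with GDC-0994 and 229.7, 241 and 218 CPM with DMSO in KHM-5M, and 156, 157 and 158 CPM with GDC-0994 and 165, 167 and 156 CPM with DMSO in TTA-1. AURKA had the smallest fall of this role (log2 fold change -2.05, SE 0.07) and showed no overlap between the KHM-5M groups. TPX2 (chr20:31739271-31801805) had 127, 128 and 127 CPM with GDC-0994 and 605, 591 and 568 CPM with DMSO in KHM-5M, against which TTA-1 had 534, 542 and 519 CPM with GDC-0994 and 491, 526 and 517 CPM with DMSO. TPX2 varied little between libraries of a group and had the smallest standard error of the 48 genes in KHM-5M (log2 fold change -2.21, SE 0.06, adjusted p 8.06e-14). NEK2, which separates the centrosomes, fell by 2.09 on the log2 scale.

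All 4 subunits of the chromosomal passenger complex fell in KHM-5M, and its kinase fell most. AURKB (chr17:8204733-8210600), Aurora B, which corrects faulty attachments of chromosomes to the spindle, had 12.8, 10.8 and 12.4 CPM in GDC-0994-treated KHM-5M cells and 95.2, 90.1 and 89.5 CPM with DMSO. In TTA-1 it had 75.5, 73.4 and 71.3 CPM with GDC-0994 and 97.7, 71.9 and 90.03 CPM with DMSO, where DMSO replicate 2 lay inside the treated range. AURKB was 7.62-fold lower in KHM-5M (log2 fold change -2.93, SE 0.11, adjusted p 1.73e-12). BIRC5 (chr17:78214186-78225636), or survivin, which brings the complex to the centromere, had 43.1, 40.9 and 39.9 CPM with GDC-0994 and 180.4, 175 and 174 CPM with DMSO in KHM-5M, and 154, 149 and 149 CPM with GDC-0994 and 182, 164 and 157 CPM with DMSO in TTA-1. The treated TTA-1 libraries lay below all TTA-1 DMSO libraries for BIRC5, without passing the test (adjusted p 0.261). Its fall in KHM-5M was the smallest of the complex (4.27-fold, log2 fold change -2.10, SE 0.07). The 95% intervals of the KHM-5M log2 fold changes, -3.17 to -2.69 for AURKB and -2.25 to -1.94 for BIRC5, did not overlap. The scaffold INCENP and CDCA8 (borealin) lay between them, at -2.30 and -2.38.

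**Figure D3:**
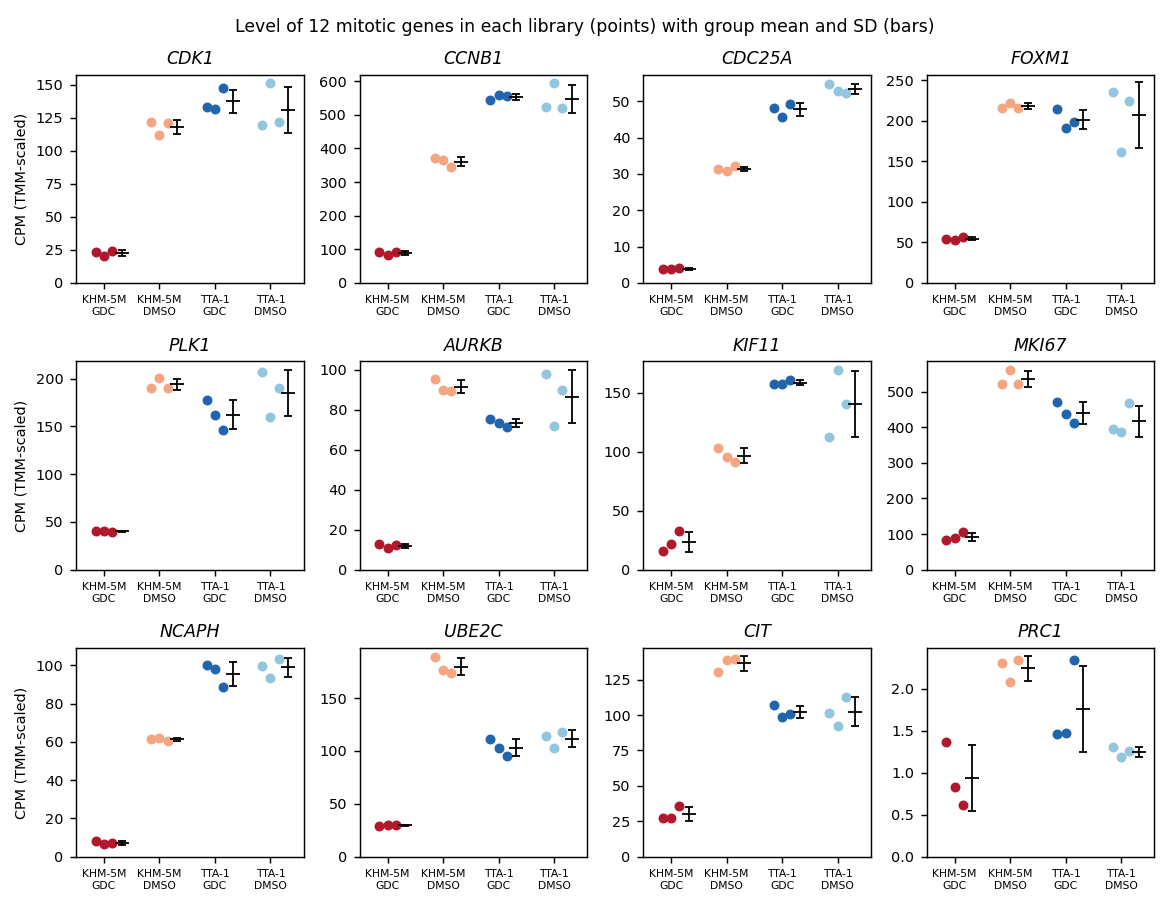
Level in CPM, scaled by TMM, of 12 of the genes in each library (points), by line and treatment from left to right, with the group mean and SD as bars (n = 3); GDC stands for GDC-0994. The 3 KHM-5M libraries with GDC-0994 lie below the 3 with DMSO in every panel, and the TTA-1 groups overlap except for CDC25A and PRC1.

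The 10 mitotic kinesins fell in KHM-5M with a median log2 fold change of -2.01. KIF11 (chr10:92593286-92655395), the motor that pushes spindle poles apart, had 15.4, 21.9 and 32.5 CPM in KHM-5M with GDC-0994, against 103, 95.2 and 90.8 CPM with DMSO, and 157, 157 and 161 CPM in TTA-1 with GDC-0994, against 113, 169 and 140.2 CPM with DMSO. Replicate 3 was the highest treated KHM-5M library, at more than 2 times the value of replicate 1, and all treated libraries stayed below all DMSO libraries. The log2 fold change of KIF11 was -2.06 with an SE of 0.19 (adjusted p 1.1e-07). KIF18B (chr17:44924709-44947711), which limits the length of astral microtubules, had the largest fall, with 13.6, 14.1 and 14.8 CPM with GDC-0994 and 93.3, 95.9 and 88.8 CPM with DMSO in KHM-5M (log2 fold change -2.71, SE 0.13). Its TTA-1 values were 111, 111 and 101 CPM with GDC-0994 and 133, 86.98 and 122 CPM with DMSO, with DMSO replicate 2 the lowest of the 6 libraries. KIF18A (chr11:28020620-28108308), which damps chromosome movements at the metaphase plate, had the smallest fall, with 6.64, 9.45 and 13.8 CPM with GDC-0994 and 32.9, 30.9 and 29.02 CPM with DMSO in KHM-5M (log2 fold change -1.65, SE 0.21). In TTA-1 KIF18A had 22.7, 20.8 and 24.3 CPM with GDC-0994 and 13.5, 23.7 and 18.02 CPM with DMSO. KIF18A and KIF18B are close relatives, and the 95% intervals of their log2 fold changes in KHM-5M, -2.09 to -1.20 and -2.98 to -2.44, did not overlap.

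KIF2C (chr1:44739818-44767767), a kinesin that takes microtubules apart at centromeres, gave the smallest p of the difference between the lines among the kinesins. It had 30.6, 25.5 and 26.2 CPM in KHM-5M with GDC-0994 and 154, 158 and 151 CPM with DMSO, and 155, 160.2 and 168 CPM in TTA-1 with GDC-0994 and 171, 174 and 159 CPM with DMSO. Only the KHM-5M groups stood apart, and the effects differed by -2.43 on the log2 scale (KHM-5M minus TTA-1, SE 0.11, adjusted p 7.86e-11). The other kinesins fell by 2.21 (KIF15, a second pole-separating motor), 2.12 (KIF4A, a chromosome-bound motor), 1.96 (KIF23, a subunit of centralspindlin), 1.94 (KIF20B, a motor of late cytokinesis), 1.93 (KIF14, which recruits citron kinase to the midbody) and 1.66 (KIF20A, which carries the passenger complex to the central spindle) on the log2 scale in KHM-5M. KIF14 had the widest 95% interval of these, -2.50 to -1.37.

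The 4 spindle assembly proteins fell within a narrow range in KHM-5M. NUSAP1 (chr15:41332694-41381050), which bundles microtubules near chromosomes, had 3.32, 3.98 and 3.68 CPM with GDC-0994 and 14.5, 14.6 and 15.8 CPM with DMSO in KHM-5M, and 16.1, 18.1 and 15.1 CPM with GDC-0994 and 15.7, 12.9 and 17.3 CPM with DMSO in TTA-1. Its log2 fold change in KHM-5M was -2.03 (SE 0.14), and 62.2% of its exonic length is shared with a second annotated gene on the same strand that had no counts, so its level is uncertain. HMMR (chr5:163460203-163491945), a microtubule-binding protein of the spindle poles, had 10.8, 13.9 and 12.8 CPM with GDC-0994 and 44.1, 46.1 and 38.00 CPM with DMSO in KHM-5M, against a much higher 158, 162 and 161 CPM with GDC-0994 and 125, 183 and 148 CPM with DMSO in TTA-1. It had the smallest fall of the 4 (log2 fold change -1.77, SE 0.13). DLGAP5 (chr14:55148112-55191678), which stabilises kinetochore fibres, had 16.5, 19.7 and 23.4 CPM with GDC-0994 and 67.5, 74.3 and 70.97 CPM with DMSO in KHM-5M, and 191, 183 and 182 CPM with GDC-0994 and 141, 189.5 and 149.6 CPM with DMSO in TTA-1. DLGAP5 fell 3.58-fold in KHM-5M, and ASPM, a spindle-pole protein, fell 3.87-fold.

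Genes of chromosome structure held the largest fall of all. NCAPH (chr2:96335787-96373845), the bridging subunit of condensin I, had 8.32, 6.47 and 6.93 CPM in KHM-5M with GDC-0994, against 61.5, 62.1 and 60.6 CPM with DMSO. In TTA-1 it had 100.2, 98.02 and 88.6 CPM with GDC-0994 and 99.9, 93.5 and 104 CPM with DMSO. The KHM-5M level fell 8.46-fold, leaving 11.8% (log2 fold change -3.08, SE 0.10, adjusted p 3.45e-13). SMC2 (chr9:104094260-104141417), a core subunit that condensin I shares with condensin II, had 20.96, 24.9 and 33.96 CPM with GDC-0994 and 74.95, 71.7 and 66.6 CPM with DMSO in KHM-5M, and 202, 198 and 197 CPM with GDC-0994 and 134, 191 and 158 CPM with DMSO in TTA-1. SMC2 kept 37.5% of its DMSO level in KHM-5M (log2 fold change -1.42, SE 0.14), and its treated TTA-1 libraries lay above all TTA-1 DMSO libraries. The other core subunit, SMC4, fell by 1.66 on the log2 scale, with 18.5% of its exonic length shared with TRIM59 on the opposite strand, and the condensin I subunit NCAPG fell by 2.19. MKI67 (chr10:128096659-128126385), the Ki-67 antigen that coats mitotic chromosomes and is used to count dividing tumour cells, had 82.5, 88.5 and 106 CPM with GDC-0994 and 522, 561 and 521 CPM with DMSO in KHM-5M. Its TTA-1 values were 472, 437 and 411 CPM with GDC-0994 and 395, 386 and 467 CPM with DMSO. MKI67 fell 5.80-fold in KHM-5M (log2 fold change -2.54, SE 0.10, adjusted p 2.33e-12), and TOP2A, the topoisomerase that untangles sister DNA, fell 4.70-fold.

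Of the anaphase genes, UBE2C (chr20:45812576-45816957), an enzyme that hands ubiquitin to substrates of the anaphase-promoting complex, had 29.2, 29.6 and 29.9 CPM in KHM-5M with GDC-0994 and 189, 177 and 174 CPM with DMSO. In TTA-1 it had 111, 102 and 95.01 CPM with GDC-0994 and 114, 103 and 118 CPM with DMSO. UBE2C fell 6.08-fold in KHM-5M (log2 fold change -2.60, SE 0.08), a value that separase matched within its error. ESPL1 (chr12:53268299-53293643), or separase, which cuts the cohesin ring between sister chromatids, had 21.6, 22.5 and 20.8 CPM with GDC-0994 and 125, 136 and 129 CPM with DMSO in KHM-5M, and 165, 173 and 168 CPM with GDC-0994 and 172, 154 and 163 CPM with DMSO in TTA-1. PTTG1 (chr5:160421822-160428744), or securin, which holds separase inactive until anaphase, had 55.9, 48.5 and 50.6 CPM with GDC-0994 and 143, 149 and 145 CPM with DMSO in KHM-5M, and 155, 157 and 145 CPM with GDC-0994 and 155, 153 and 148 CPM with DMSO in TTA-1. The enzyme fell more than its inhibitor in KHM-5M: the log2 fold change was -2.59 (95% interval -2.75 to -2.43) for ESPL1 and -1.50 (95% interval -1.65 to -1.34) for PTTG1. CDC20, the activator of the complex, fell by 2.23 on the log2 scale.

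All 5 cytokinesis genes fell in KHM-5M, with the most uncertain value for PRC1. CIT (chr12:119685790-119877291), citron kinase, which organises the midbody, had 27.5, 27.3 and 35.6 CPM with GDC-0994 and 131, 139 and 139.8 CPM with DMSO in KHM-5M, and 107, 98.6 and 101 CPM with GDC-0994 and 102, 92.4 and 113 CPM with DMSO in TTA-1. CIT had the largest fall of the role (4.54-fold, log2 fold change -2.18, SE 0.10). RACGAP1 (chr12:49976923-50033136), the partner of KIF23 in centralspindlin, had 44.2, 44.9 and 48.4 CPM with GDC-0994 and 182, 189.9 and 171 CPM with DMSO in KHM-5M, and 209.6, 215 and 216 CPM with GDC-0994 and 203, 229 and 212 CPM with DMSO in TTA-1. The partners fell by nearly the same amount, with log2 fold changes of -1.98 (SE 0.07) for RACGAP1 and -1.96 (SE 0.11) for KIF23. ANLN (anillin), the scaffold of the contractile ring, fell by 2.04, and ECT2, the factor that activates RHOA at the equator, fell by 1.48 on the log2 scale.

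PRC1 (chr15:90966038-90995629), which crosslinks microtubules of the central spindle, had 1.37, 0.829 and 0.613 CPM in KHM-5M with GDC-0994, against 2.31, 2.08 and 2.35 CPM with DMSO, and 1.47, 1.47 and 2.35 CPM in TTA-1 with GDC-0994, against 1.30, 1.18 and 1.26 CPM with DMSO. These values rest on 10 to 41 counts per library, far fewer than any other of the 48 genes. In the annotation, 57.6% of the exonic length of PRC1 is shared with the gene AC068831.7 on the same strand, which had 38, 31 and 32 counts in KHM-5M with GDC-0994 and 142, 144 and 148 counts with DMSO. In TTA-1 AC068831.7 had 127, 99 and 115 counts with GDC-0994 and 112, 120 and 133 counts with DMSO (this gene was chosen after its values were seen). Smaller overlaps are annotated for NCAPG (33.1% of its length, with LCORL), FOXM1 (15.9%, with ITFG2) and PLK1 (11.6%, with AC008870.3). How reads in the shared bases were assigned is not given in the sources used here, so the level of PRC1 is uncertain. The log2 fold change of PRC1 in KHM-5M was -1.24 (SE 0.30, adjusted p 0.00251). It lay between -1.62 and -0.26 over the alternatives in which PRC1 could be tested, and PRC1 passed the test in each of them. These include the log2(FPKM + 1) scale, on which the added 1 shrinks the change of PRC1. It averaged 0.171 FPKM with GDC-0994 and 0.401 FPKM with DMSO in KHM-5M. Among retrocopies of the 48 genes, KIF4B, PTTG2, PTTG3P and CDC20P1 had group means of at most 0.628 CPM, CCNB2P1 and RACGAP1P had no counts, and values for CCNB1P1, KIF20BP1 and BIRC5P1 are not analysed here.

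Levels differed between the treated KHM-5M libraries in a way that followed base composition. For KIF11, KIF18A, SMC2 and KIF14, replicate 3 with GDC-0994 was the highest of its group. Over the 48 genes, the deviation of a library from its group mean on the log2 scale correlated with the GC content of the gene at r = 0.62 in replicate 1 and r = -0.65 in replicate 3 of KHM-5M with GDC-0994, and at r = 0.89 in replicate 1 and r = -0.90 in replicate 2 of TTA-1 with DMSO (Pearson, across 48 genes that share each library, given as a description). The same trend was seen over all 9527 genes with enough counts, at 0.60, -0.56, 0.74 and -0.70 in the same libraries. With each library's trend in gene length and GC content removed, all 48 genes fell in KHM-5M, with a median of -2.14, and the part of base composition in the single values was not tested further.

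**Figure D4:**
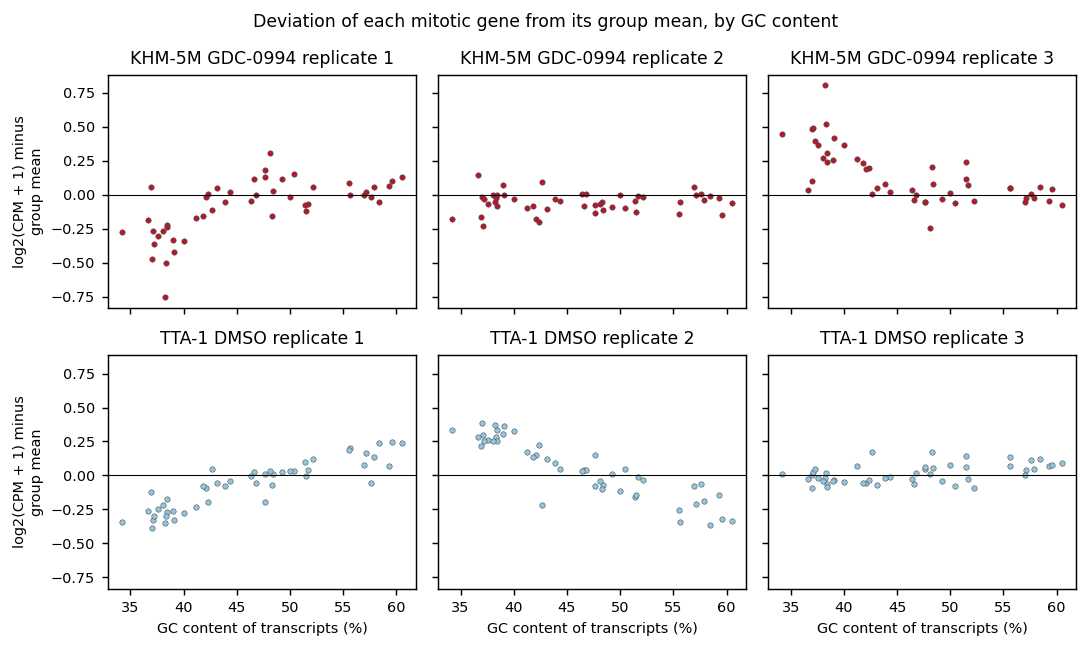
Deviation of log2(CPM + 1) of each of the 48 genes from its group mean against the GC content of its transcripts in percent, for the 3 libraries of KHM-5M with GDC-0994 (top) and of TTA-1 with DMSO (bottom). The deviations slope upwards in replicate 1 of both groups and downwards in KHM-5M replicate 3 and TTA-1 replicate 2, as the correlations of 0.62, 0.89, -0.65 and -0.90 describe.

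In TTA-1, single genes ranged between -0.24 for AURKB and 0.49 for PRC1 on the log2 scale. No gene passed the test, 6 had an unadjusted p below 0.05 (edgeR), and the DESeq2 Wald test called none. The 6 with an unadjusted p below 0.05 were CCNB2, PLK1, AURKB, BIRC5, ASPM and SMC2. The share of all genes tested at that level was not counted, so 6 cannot be set against it. PLK1, AURKB and BIRC5 had log2 fold changes of -0.19, -0.24 and -0.15 with GDC-0994, and CCNB2, ASPM and SMC2 of 0.15, 0.49 and 0.31. The 95% intervals of all 48 genes lay between -0.45 and 1.14, and no interval included a fall to the size of the smallest one in KHM-5M. The treated libraries lay above all DMSO libraries for 8 genes, as for 9.75% of all genes tested, and below them for 2, CDC25A and BIRC5, as for 9.05% of all genes tested. Without replicate 2 of DMSO, 6 of the 48 fell and 4 rose, where 10.3% of all genes tested fell and 5.36% rose, so that the members' shares are near those of all genes. The genes that fell without it were FOXM1, PLK1, AURKB, INCENP, KIF18B and CDC20, with log2 fold changes of -0.38 to -0.21. Those that rose were ASPM, KIF20B, SMC2 and DLGAP5, at 0.33 to 0.63. The 6 that fell have a GC content of 55.58% to 59.59%, and the 4 that rose of 34.2% to 38.41%. With all libraries, the TTA-1 log2 fold change had a Spearman correlation of -0.7 with GC content over the 48 genes. The part of base composition in these calls was not tested. Without the trend in length and GC content, CDC25B, MYBL2 and ASPM rose by 0.27, 0.25 and 0.34, where 2.87% of all genes tested rose. With no filter on low counts ASPM and SMC2 rose, where 1.02% of all genes tested did. Without DMSO replicates 1 and 2 together, an alternative chosen after seeing the data, the median log2 fold change of the 48 was 0.07.

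Most of the genes that report ERK signalling fell in both lines, and by more in KHM-5M. Of 10 genes that report MAPK output, 9 fell and 1 rose in KHM-5M, where 25.1% and 24.6% of all genes tested did. In TTA-1 8 fell, where 2.24% of all genes tested did. The median log2 fold change of the 10 was -2.8 in KHM-5M and -0.89 in TTA-1. By the test of the difference, 9 of the 10 were lower in KHM-5M, where 15.6% of all genes tested were. The median difference of the 10 was -2.05. ETV4, an ETS factor induced by ERK, averaged 3.42 ± 0.545 CPM with GDC-0994 and 126 ± 3.15 CPM with DMSO in KHM-5M (SD, n = 3 each; log2 fold change -5.20). CCND1, cyclin D1, which acts in G1, averaged 79.3 ± 5.02 CPM with GDC-0994 and 529 ± 18.6 CPM with DMSO in KHM-5M (log2 fold change -2.74, SE 0.08). In TTA-1 CCND1 fell by 0.70 on the log2 scale (adjusted p 2.68e-05), while none of the 48 mitotic genes was called there.

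The log2 fold change with GDC-0994 was lower in KHM-5M than in TTA-1 for all 48 genes by the test of the difference itself. The same held for 15.6% of all genes tested. The median difference of log2 fold changes was -2.19, and single differences ranged between -3.03 (SE 0.13) for NCAPH and -1.22 (SE 0.10) for CDC25B. A difference of at least 2-fold was found for all 48 genes, against 6.13% of all genes tested. By role the median difference was -2.37 for chromosome structure, -2.33 for the cyclins, CDK1 and CDC25, -2.28 for anaphase, -2.25 for the passenger complex, -2.23 for the kinesins, -2.21 for the PLK, NEK and Aurora A kinases, -2.09 for spindle assembly, and -1.98 for the transcription factors and for cytokinesis.

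With DMSO the lines differed gene by gene and in both directions. Of the 48 genes, 14 were higher in KHM-5M than in TTA-1 and 20 were lower, where 39.6% and 36.8% of all genes tested were, a background against which neither count stands out. The median log2 fold change was -0.09, against 0.03 over all genes. The lowest in KHM-5M were SMC4 at -2.09 (SE 0.15), ECT2 at -1.94 (SE 0.12), HMMR at -1.83 (SE 0.12) and ANLN at -1.82 (SE 0.15). Levels per length show the same: ANLN averaged 35.1 ± 1.77 FPKM in KHM-5M with DMSO, against 122 ± 26.6 FPKM in TTA-1 with DMSO, and SMC4 averaged 13.3 ± 0.672 FPKM in KHM-5M and 55.5 ± 10.4 FPKM in TTA-1 (SD, n = 3 each). The highest in KHM-5M with the test passed were PRC1 at 0.84, INCENP at 0.82 and KIF18A at 0.75, and UBE2C averaged 138 ± 7.20 FPKM in KHM-5M and 84.4 ± 5.44 FPKM in TTA-1 (log2 fold change 0.69, SE 0.08). In every alternative tried, 14 genes stayed lower and 8 stayed higher with the test passed. The 8 were AURKA, CIT, INCENP, KIF18A, KIF20A, KIF4A, TPX2 and UBE2C. How many of all genes tested did so was not counted. Directions of many genes were not stable, and not only where differences were small. With the trend in length and GC content removed, 17 genes changed sign, 13 of them called with or without the trend. Among the 13 were MYBL2 (-0.12 in place of 0.32) and KIF11 (0.00 in place of -0.54). Some of the 13 then passed the test in the new direction, such as CDK1 at 0.47 and PLK1 at -0.31. Library-total and upper-quartile scaling moved the median of all genes by 0.10 under DMSO and by 0.13 and 0.16 under GDC-0994 in the comparisons of the lines.

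**Figure D5:**
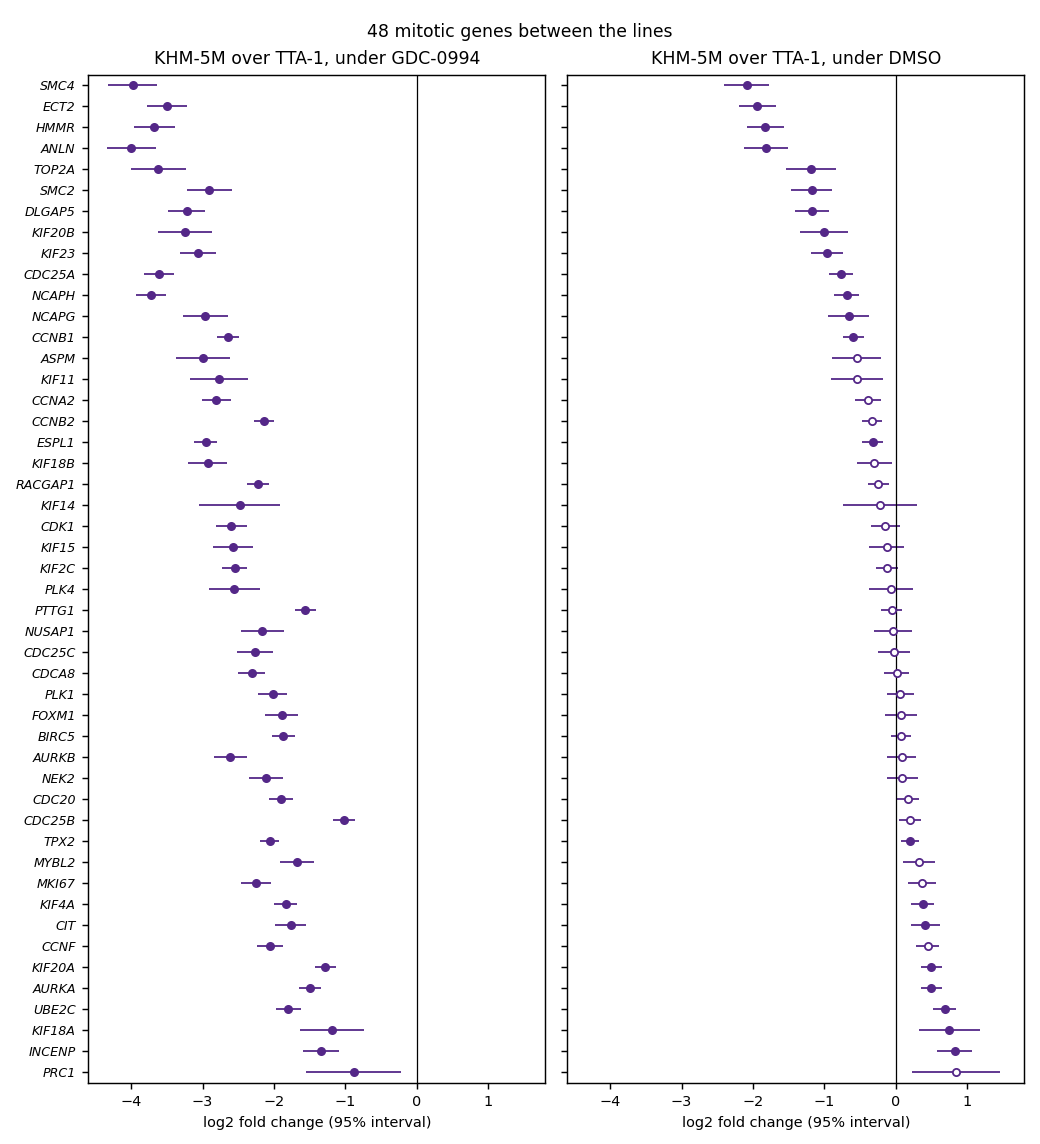
Log2 fold change of KHM-5M over TTA-1 for the 48 genes under GDC-0994 (left) and under DMSO (right), with bars for the 95% interval and genes in the order of the DMSO values. Filled points are genes that pass the test under GDC-0994 (48 of 48) or, under DMSO, pass it in the same direction in every alternative (22 of 48); all left-hand points lie below 0, between -4.00 and -0.88.

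Under GDC-0994 all 48 genes were lower in KHM-5M than in TTA-1, where 39.1% of all genes tested were lower, and the median log2 fold change was -2.40. The largest differences were those of ANLN (-4.00, SE 0.16), SMC4 (-3.98, SE 0.16) and NCAPH (-3.72, SE 0.10). ANLN and SMC4 were already among the lowest in KHM-5M with DMSO, while NCAPH, at -0.69 with DMSO, had the largest fall under treatment. PRC1 had the smallest difference at -0.88 (adjusted p 0.0163), which did not pass the test without KHM-5M GDC-0994 replicate 2 (adjusted p 0.0562), without KHM-5M GDC-0994 replicate 3 (0.0935) or without TTA-1 GDC-0994 replicate 3 (0.14).

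The order of the genes by level was largely kept. In FPKM, the deposited measure of level per gene length, CDC20 was the most abundant of the 48 in KHM-5M with 42.8 ± 1.86 FPKM under GDC-0994 and 196 ± 4.55 FPKM under DMSO (SD, n = 3 each). TPX2 averaged 35.6 ± 0.376 FPKM under GDC-0994 and 161 ± 6.15 FPKM under DMSO. CCNB1 averaged 34.8 ± 2.05 and 139 ± 6.04 FPKM, UBE2C 23.2 ± 0.0933 and 138 ± 7.20 FPKM, and MYBL2 36.4 ± 3.24 and 136 ± 5.77 FPKM, each under GDC-0994 and then under DMSO. With DMSO, CCNB1, UBE2C and MYBL2 did not differ beyond their SDs. In TTA-1 CCNB1 led, at 209.8 ± 4.03 FPKM with GDC-0994 and 208 ± 16.6 FPKM with DMSO. The lowest after PRC1 in KHM-5M with DMSO were NUSAP1 (5.14 ± 0.225 FPKM), PLK4 (6.37 ± 0.580 FPKM), KIF15 (6.49 ± 0.324 FPKM) and KIF18A (6.55 ± 0.457 FPKM), which do not differ beyond their SDs except for NUSAP1. Across the 48 genes the FPKM in KHM-5M with GDC-0994 and with DMSO had a Spearman correlation of 0.96, and KHM-5M and TTA-1 with DMSO one of 0.86. The log2 fold change in KHM-5M had a Spearman correlation of -0.12 with the FPKM level under DMSO, 0.15 with gene length and -0.39 with GC content (across 48 genes of the same libraries, given as a description).

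Other genes of the same pathways were counted from separate lists. Of all genes tested in KHM-5M, 25.1% fell and 24.6% rose. All 18 genes of the kinetochore and spindle checkpoint fell in KHM-5M, with a median log2 fold change of -2.10. None was called in TTA-1, where 3.43% of all genes tested were. CENPA, the centromeric histone, fell by 2.42, and MAD2L1, a checkpoint protein that holds CDC20 inactive, fell by 2.48 on the log2 scale. Of 9 further condensin and cohesin subunits 8 fell, with NCAPD3 of condensin II at -2.12 and NCAPD2 of condensin I at -1.54, and STAG2, the subunit not called, was at 0.21 (named after its value was seen). Of 16 genes of the anaphase-promoting complex and its regulators 6 fell and 1 rose, at a median of -0.16, and FBXO5, an inhibitor of the complex, fell by 2.10, while FZR1, its late-mitotic activator, fell by 0.52 and ANAPC16, a subunit, rose by 0.40. Of the CDK1-inhibiting kinases and the regulators of PP2A-B55, the phosphatase that opposes CDK1, 4 of 7 fell, with WEE1, which phosphorylates CDK1, at -1.62 and PKMYT1, its membrane-bound counterpart, at -3.01.

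Among the MuvB, DREAM and NF-Y genes, 7 of 14 fell and 2 rose in KHM-5M, where 25.1% and 24.6% of all genes tested did. TFDP1, the dimer partner of E2F factors, averaged 131 ± 4.05 CPM with GDC-0994 and 282 ± 8.42 CPM with DMSO in KHM-5M (log2 fold change -1.10), and LIN9, a MuvB subunit, averaged 5.33 ± 1.55 CPM with GDC-0994 and 17.7 ± 1.49 CPM with DMSO (log2 fold change -1.74). RBL2, the p130 pocket protein of resting cells, rose by 0.47 and TFDP2 by 0.59 on the log2 scale. Of 18 transport kinesins and light chains, which carry cargo rather than chromosomes, 3 fell and 6 rose in KHM-5M, with a median of 0.06. KIF21B, a microtubule-pausing motor, fell by 2.27, and KIF13A, a motor of endosomal cargo, rose by 0.55. Of 12 genes of the cleavage furrow and abscission, 5 fell and 1 rose. CEP55, a midbody scaffold, fell by 2.01, DIAPH1, a formin, fell by 0.84, and PDCD6IP, an abscission protein, rose by 0.45 on the log2 scale. None of the genes in these lists other than MAPK output genes was called in TTA-1, where 3.43% of all genes tested were.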

How the data were processed

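RNA of 2 established thyroid carcinoma lines was sequenced in 12 libraries, 3 for each of 4 groups. The authors deposited whole-number counts per gene and FPKM values. The tools CASAVA, HISAT2 2.0.5 and featureCounts 1.5.0-p3 and the build GRCh38 are named per the submitters' processing notes, without their roles. The library preparation per the labels includes no step that marks the strand, so reads from overlapping genes on opposite strands cannot be told apart.

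The deposited counts entered edgeR (version 4.0.16, R version 4.3.3) after its filterByExpr filter on low counts and TMM scaling. Quasi-likelihood tests were run on contrasts of 4 group means with 8 residual degrees of freedom. Benjamini-Hochberg adjustment covered all 16218 genes tested, and a gene was called at an adjusted p below 0.05. CPM are scaled by TMM, and intervals are at 95%. The deposited FPKM values were used for levels per gene length and, on the log2(FPKM + 1) and log2(FPKM + 0.1) scales, for limma 3.58.1. Gene positions and overlaps were taken from GENCODE 29, whose gene starts and ends matched all 58735 rows of the table.

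Values in every library are given, in each role, for the gene with the largest and the gene with the smallest log2 fold change in KHM-5M and the gene with the smallest p of the difference between the lines, and for MKI67, FOXM1, CDK1, CCNB1, PLK1, AURKB and KIF11. From each other list at most the 2 genes with the smallest p in each direction in KHM-5M are named. The 48 genes and the other lists were chosen with earlier results of these data known. Alternatives were DESeq2 1.42.0, other scalings and filters, a replicate block, removal of each library's trend in gene length and GC content, thinning to the smallest total, and leaving out each library. On simulated counts over 15535 genes, the KHM-5M comparison recovered 99% of 100 genes changed by 1 and 100% of 100 genes changed by 2 on the log2 scale. The changed genes all had higher levels than PRC1. The simulated counts held no GC trend and no difference between the lines under DMSO, so the recovery does not cover these features of the real libraries.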

Additional observations from a re-analysis of the deposited data

Results flagged for a closer look

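The effect of GDC-0994 differed between the lines for all 48 genes by the test of the difference itself (edgeR's quasi-likelihood test, adjusted p below 0.05). Each log2 fold change was lower in KHM-5M than in TTA-1. The values are KHM-5M log2 fold changes minus TTA-1 log2 fold changes. For the cyclins, CDK1 and CDC25 the differences were those of CDK1 (-2.45), CCNA2 (-2.42), CCNB1 (-2.05), CCNB2 (-1.81), CCNF (-2.50), CDC25A (-2.84), CDC25B (-1.22) and CDC25C (-2.24). For the mitotic transcription factors the differences were those of FOXM1 (-1.97) and MYBL2 (-2.00). For the PLK, NEK and Aurora A kinases the differences were those of PLK1 (-2.09), PLK4 (-2.49), NEK2 (-2.21), AURKA (-2.00) and TPX2 (-2.26). For the chromosomal passenger complex the differences were those of AURKB (-2.69), BIRC5 (-1.94), INCENP (-2.17) and CDCA8 (-2.33). For the kinesins the differences were those of KIF11 (-2.23), KIF14 (-2.26), KIF15 (-2.45), KIF18A (-1.94), KIF18B (-2.63), KIF20A (-1.78), KIF20B (-2.24), KIF23 (-2.10), KIF2C (-2.43) and KIF4A (-2.21). For spindle assembly the differences were those of NUSAP1 (-2.13), ASPM (-2.44), DLGAP5 (-2.05) and HMMR (-1.85). For chromosome structure the differences were those of MKI67 (-2.62), TOP2A (-2.43), NCAPG (-2.30), NCAPH (-3.03), SMC2 (-1.73) and SMC4 (-1.89). For anaphase the differences were those of CDC20 (-2.08), UBE2C (-2.48), ESPL1 (-2.63) and PTTG1 (-1.50). For cytokinesis the differences were those of PRC1 (-1.73), ANLN (-2.18), ECT2 (-1.56), RACGAP1 (-1.98) and CIT (-2.18).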

How the results depend on the processing

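All 48 genes fell in KHM-5M and differed between the lines in every alternative in which they could be tested (47 under the stricter count filter and the filter on FPKM, which dropped PRC1). Medians from limma on log2(FPKM + 1) were -1.87 and -1.88 (with the FPKM filter) in KHM-5M, -1.94 and -1.94 for the difference, and -2.03 and -2.06 between the lines under GDC-0994. Between the lines under GDC-0994 the median was also -2.24 with upper-quartile scaling, -2.26 with library totals, and -2.21 with the length and GC trend removed, with or without the replicate block. Between the lines under DMSO it was 0.01 with library totals. In TTA-1, 2 genes rose with no filter, where 1.02% of all genes tested rose. With the length and GC trend removed 3 rose, with or without the block, where 2.82% and 2.87% of all genes tested did. The cause was not tested.

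Leaving out each library, or TTA-1 DMSO replicates 1 and 2 together (chosen after seeing the data), gave medians of -2.18 to -2.02 in KHM-5M, 0.02 to 0.08 in TTA-1, -2.23 to -2.11 for the difference, -0.14 to -0.01 between lines under DMSO and -2.40 to -2.30 under GDC-0994. Calls in TTA-1 ranged from 0 to 4 higher and from 0 to 6 lower, with 4 and 6 without DMSO replicate 2, and 1 higher without KHM-5M GDC-0994 replicate 3. Between the lines 47 to 48 genes were lower under GDC-0994, and 19 to 20 lower and 11 to 14 higher under DMSO. Without mitochondrially encoded genes the 48 genes took 0.988% of counts in TTA-1 with GDC-0994 and 0.773% in KHM-5M with DMSO.

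Between the lines under DMSO, 17 genes changed sign with the length and GC trend removed, of which CDC25C, BIRC5, CDCA8 and KIF14 were called neither with nor without it. The other 13 then had log2 fold changes of CDK1 0.47, CCNA2 0.01, CDC25B -0.27, FOXM1 -0.24, MYBL2 -0.12, PLK1 -0.31, PLK4 0.48, AURKB -0.17, KIF11 0.00, KIF15 0.26, NUSAP1 0.31, ASPM 0.03 and CDC20 -0.19. With the replicate block as well these were the same to 2 decimals except FOXM1 -0.23, KIF11 0.01 and KIF15 0.27. The replicate block alone gave 48 genes lower in KHM-5M (median -2.09), none called in TTA-1 and 48 for the difference (median -2.21). Deviations of same-numbered libraries correlated at -0.146 to 0.272 over 9527 genes, and those of differently numbered libraries within a line at -0.41 to 0.411. These correlations also hold each library's GC trend, so they cannot decide whether same-numbered libraries share a culture or batch. PRC1, with 10 to 41 counts per library, is the value that depth limits most.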
